A study of Mus musculus with 22 samples.

Results

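The genes described here are 38 mouse genes of T cell identity and T cell receptor signalling, taken by name from a list. Of these, 37 had values among the 17966 genes measured and 36 passed the filter on low values that 14278 genes in all passed. The expression of the remaining listed gene, Trat1, is not analysed here. Sh2d1a, an adaptor of the SLAM receptors, failed the filter: it stood at 0 to 5.14 normalized counts with the combination, 0 to 1.95 with anti-CD40, 0 to 5.51 with beta-glucan and 0 in every untreated tumour. They were read in 22 tumours that PDA.7940B cells formed in the pancreas of mice labelled wild type; the line is a polyclonal pancreatic ductal adenocarcinoma line derived from KPC mice. The groups were both agents together (the combination, n = 5, for which the labels give no doses), the agonistic anti-CD40 antibody FGK45 alone (0.1 mg once into the peritoneum, n = 6), beta-glucan alone (1.2 mg once into a vein, n = 6) and untreated tumours (n = 5). Treated tumours were taken 10 days after treatment, and the labels give no day for the untreated tumours. RNA came from fixed, paraffin-embedded sections and was read from the 3' ends of transcripts. Separate mice per tumour are not stated in the labels, and the p-values therefore cover the spread between tumours, which may be partly technical.

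A T cell recognises antigen through a receptor whose signalling chains, the CD3 proteins and the zeta chain, are phosphorylated by the kinase Lck, which CD4 and CD8 carry to the receptor. Zap70 then binds the chains and phosphorylates the adaptors Lat and Slp-76 (Lcp2), from which calcium, Ras and protein kinase C signals start. CD28 and related surface proteins tune this response, Bcl11b, Tcf7 and Lef1 set T cell fate in the nucleus, and the Gimap GTPases support lymphocyte survival. Neither agent targets T cells directly: CD40 sits on dendritic cells, B cells and macrophages, and beta-glucan, from fungal cell walls, binds Dectin-1 on myeloid cells.

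The receptor chain genes Cd3g, Cd3d and Cd3e lie side by side on chromosome 9 of mm10. GENCODE M21 places Cd3g at chr9:44969572-44980431 on the minus strand, Cd3d at chr9:44981786-44987339 on the plus strand and Cd3e at chr9:44998740-45009627 on the minus strand. The windows around the start sites of these genes, Cd247 and Lck are shown, since they encode the receptor chains and the kinase that phosphorylates them, from 250 bases before to 50 after the RefSeq start in GRCm38.p6, 5' to 3' on the strand of the gene. Capitals mark the E-box CAGGTG or its reverse complement CACCTG, a string that E proteins of lymphocytes can bind.
Cd3g, chr9:44980382-44980681, minus strand: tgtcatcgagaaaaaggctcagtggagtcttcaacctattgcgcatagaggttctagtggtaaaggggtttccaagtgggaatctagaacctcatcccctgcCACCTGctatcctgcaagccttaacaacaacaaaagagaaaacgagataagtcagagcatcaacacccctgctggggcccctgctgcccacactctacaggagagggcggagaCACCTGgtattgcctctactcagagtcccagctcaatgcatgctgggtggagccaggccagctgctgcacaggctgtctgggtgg
Cd3d, chr9:44981536-44981835, plus strand: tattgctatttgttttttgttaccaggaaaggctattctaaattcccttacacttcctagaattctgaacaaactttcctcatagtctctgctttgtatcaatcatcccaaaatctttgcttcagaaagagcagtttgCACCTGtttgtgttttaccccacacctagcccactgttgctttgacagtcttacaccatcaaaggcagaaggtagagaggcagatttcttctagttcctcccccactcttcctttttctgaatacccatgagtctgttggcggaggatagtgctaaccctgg
Cd3e, chr9:45009562-45009861, minus strand: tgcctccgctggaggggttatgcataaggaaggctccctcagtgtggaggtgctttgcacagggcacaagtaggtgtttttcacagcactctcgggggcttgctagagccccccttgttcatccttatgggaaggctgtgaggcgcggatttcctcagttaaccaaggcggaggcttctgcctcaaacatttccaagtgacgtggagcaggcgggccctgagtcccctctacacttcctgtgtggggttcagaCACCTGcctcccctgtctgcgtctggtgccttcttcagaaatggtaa
Cd247, chr1:165788431-165788730, plus strand: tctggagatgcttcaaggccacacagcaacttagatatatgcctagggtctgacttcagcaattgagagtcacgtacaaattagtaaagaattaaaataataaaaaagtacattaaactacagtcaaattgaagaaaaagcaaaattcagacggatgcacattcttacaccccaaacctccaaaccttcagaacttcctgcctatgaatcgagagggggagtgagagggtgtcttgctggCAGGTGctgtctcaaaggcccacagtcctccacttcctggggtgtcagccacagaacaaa
Lck, chr4:129573592-129573891, minus strand: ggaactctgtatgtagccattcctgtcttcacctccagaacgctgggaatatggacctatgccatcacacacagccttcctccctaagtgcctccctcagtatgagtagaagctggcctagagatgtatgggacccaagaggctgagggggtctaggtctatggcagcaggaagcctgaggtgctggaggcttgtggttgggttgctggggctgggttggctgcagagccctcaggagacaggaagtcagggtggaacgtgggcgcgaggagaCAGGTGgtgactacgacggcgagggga
Counted from 0 at the start site, the first base of the E-box lay at -148 and -35 in Cd3g, at -112 in Cd3d, at 3 in Cd3e, at -10 in Cd247 and at 23 in Lck. A RefSeq window was at hand for 29 of the 38 genes, Trat1 included, and 9 of these (31.0%) held the E-box on either strand, against 20.05% of all 27025 windows. Zap70, Cd5, Rasgrp1 and Sit1 were the others. In all 18 strings were counted. The share among the T cell genes was larger for the ETS form CAGGAA (55.2% against 30.4% of all windows), for the TCF/LEF string CTTTGA (37.9% against 16.2%) and for the Ikaros string TGGGAA (37.9% against 25.5%). The RUNX string TGTGGT (20.7% against 16.9%) and its longer form TGTGGTT (6.90% against 5.37%), the GATA string AGATAA (10.3% against 11.4%), the TATA box TATAAA (13.8% against 14.2%) and the NFAT string GGAAAA (20.7% against 23.6%) were closer to all windows. Shares were 13.8% against 16.1% for the E-box CAGCTG, 6.90% against 15.2% for CCGGAA, 96.6% against 96.0% for the ETS core GGAA, which most other ETS strings contain, and 82.8% against 71.1% for GGAAG. They were 3.45% against 7.92% for the AP-1 string TGANTCA, 3.45% against 1.85% for the CRE TGACGTCA and 31.0% against 38.4% for CGCG, and no window of a T cell gene held CCGGAAG (9.14% of all) or the NF-kB string, GGG and TTTCC parted by 2 bases (1.63%). A match is a string in a window and not a bound site.

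Depth, recovered from the table, was 12240871 to 18843110.0 reads in combination tumours, 6327092 to 21173617 with anti-CD40, 7131052 to 8738064 with beta-glucan and 7375930.0 to 9340171 in untreated tumours. One read was worth 0.609 to 1.33 normalized counts with the combination, 0.487 to 2.72 with anti-CD40, 0.950 to 1.10 with beta-glucan and 0.832 to 1.25 in untreated tumours. Digestive enzyme genes of acinar cells took 0.579 to 34.8% of reads with the combination, 0.606 to 65.0% with anti-CD40, 0.535 to 16.7% with beta-glucan and 0.018 to 17.0% in untreated tumours. Combination tumours 4 and 5 and anti-CD40 tumours 2, 3 and 6 exceeded 30%; counts without these 5 tumours are given with the comparisons. The epithelial genes Epcam, Krt7, Krt8, Krt18, Krt19, Cdh1, Cldn7 and Elf3 all had reads in every group. They summed to 30893 to 41760.3 normalized counts in untreated tumours and 10179 to 26513 with beta-glucan. With anti-CD40 the sum was 4104 to 22774.5, and with the combination 3493 to 8526. These reads cannot tell tumour cells from other epithelium, so they do not test the tumour label.

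T cell genes were higher in tumours given anti-CD40, with or without beta-glucan, than in untreated tumours. With the combination 34 of the 36 tested genes rose and 0 fell, where 18.2% of all tested genes rose and 15.8% fell. With anti-CD40 alone 31 rose and 0 fell, where 11% of all genes rose and 7.56% fell. With beta-glucan alone 7 rose and 0 fell, where 5.09% of all genes rose and 1.32% fell; the 7 were Coro1a, Prkcq, Gimap3, Ptprcap, Rasgrp1, Gimap7 and Lcp2. The test throughout was limma on log2(value + 1) with all 4 groups in the fit, two-sided, with Benjamini-Hochberg adjustment over all tested genes and a threshold of 0.05. Log2 fold changes and folds are on that scale, and for genes with few reads they can be smaller or larger than those of count models. Gimap7 with beta-glucan was 2.34 here and 1.71 in edgeR on the recovered reads. Cd3g with anti-CD40 was 1.81 here and 2.57 in edgeR.

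The median log2 fold change over the 36 genes was 3.65 with the combination, 3.19 with anti-CD40 and 0.95 with beta-glucan, against -0.01, 0.00 and 0.02 over all tested genes. Fold changes were above 0 for 36, 36 and 30 of the 36 genes. Every treated tumour stood above every untreated tumour for 30 genes with the combination (11.7% of all genes), 27 with anti-CD40 (5.03%) and 4 with beta-glucan (3.98%). No T cell gene lay below every untreated tumour throughout a treated group, as 10.3%, 4.08% and 2.87% of all genes did. Cd28, Txk and Prkcq were under the filter's value of 10 in every untreated tumour and passed through the treated ones. Cd3g, Cd27, Cd96, Sit1, Themis and Ubash3a reached 10 in fewer than 5 untreated and beta-glucan tumours together. Like Cd28 and Txk, they passed only with the tumours given anti-CD40, and all are among the 36 genes counted. With no filter 37 genes were tested and the counts of genes that rose were again 34, 31 and 7. In these bulk tumours more T cells and more of a transcript per T cell cannot be told apart.

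**Figure D1:**
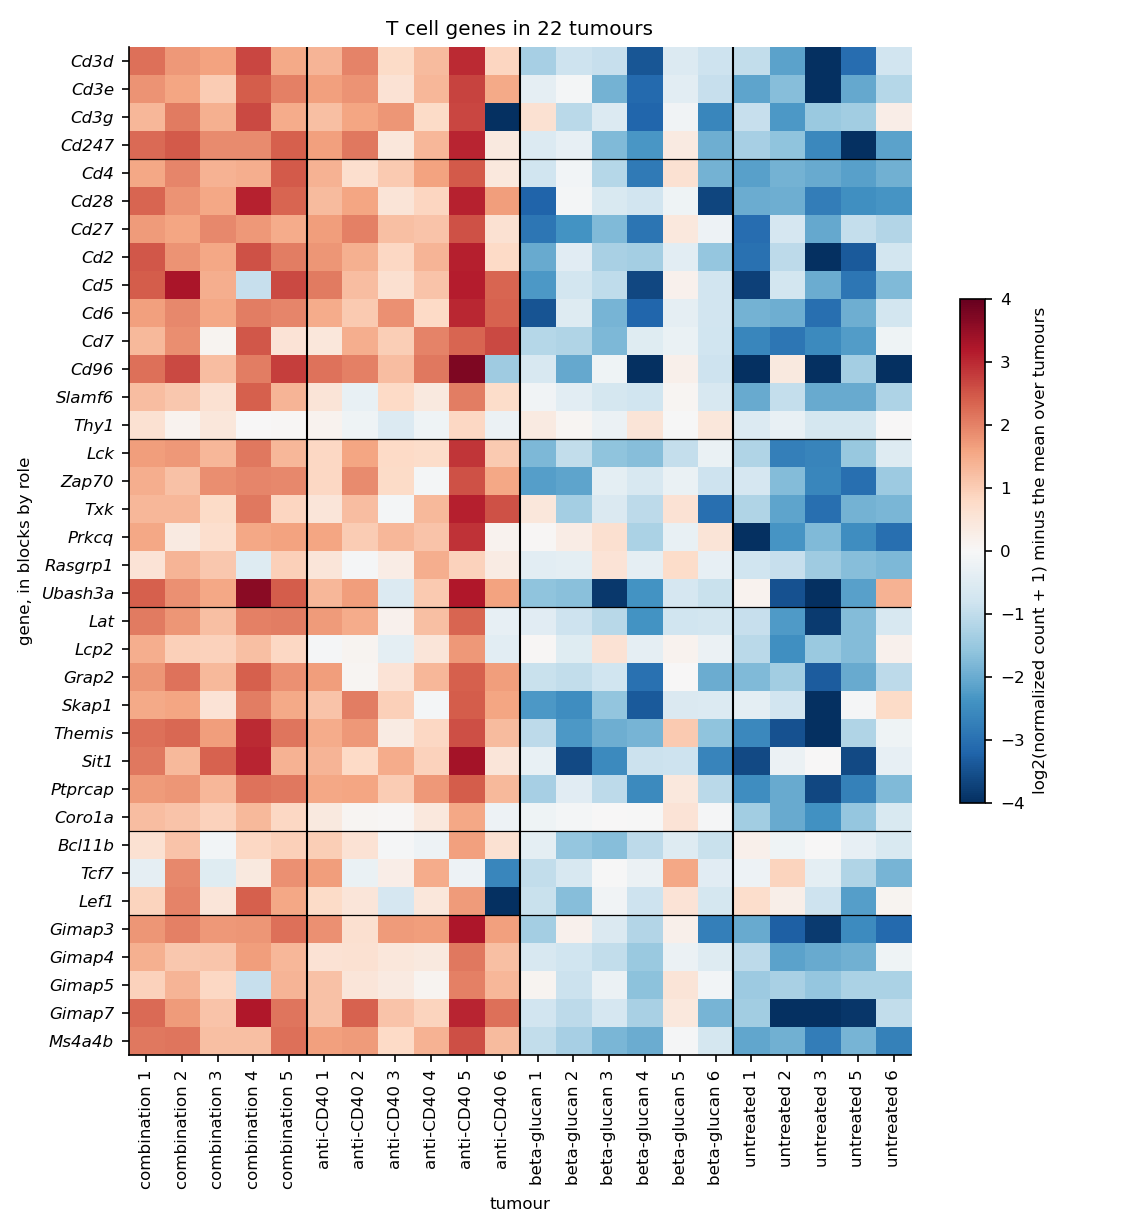
Level of each of the 36 tested T cell genes in each of the 22 tumours, as log2(normalized count + 1) minus the mean over tumours (colour, with values beyond -4 or 4 drawn at the end of the scale). Rows are genes in blocks by role and columns are tumours by group; the combination and anti-CD40 columns are mostly red, and anti-CD40 tumour 5 is the highest of its group for 33 genes.

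All 4 genes of the receptor complex rose with the combination, 3 with anti-CD40 and 0 with beta-glucan. Of all tested genes 18.2%, 11% and 5.09% rose, and these shares also apply to the counts by role below. A count of 0 with beta-glucan in so small a block is close to the 5.09% of all genes. Cd3e, the epsilon chain, stood at 227, 194, 130.1, 353 and 262 normalized counts in combination tumours 1 to 5 and at 97.7 to 422 (median 194) in the 6 anti-CD40 tumours. It stood at 6.65 to 61.5 (median 40.6) in the 6 beta-glucan tumours and at 14.1, 18.99, 1.75, 14.9 and 28.8 in untreated tumours 1, 2, 3, 5 and 6. Each combination and each anti-CD40 tumour lay above every beta-glucan and untreated tumour, and 4 of the 6 beta-glucan tumours lay above every untreated tumour. The log2 fold change against untreated tumours was 4.08 ± 0.57 (SE) with the combination (adjusted p = 8.14e-06), 3.91 ± 0.55 with anti-CD40 (adjusted p = 2.35e-05) and 1.18 ± 0.55 with beta-glucan (adjusted p = 0.236).

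Cd3d, the delta chain, read 1303, 945, 865, 1789 and 809 in the combination tumours and 477 to 2245 (median 711) with anti-CD40. With beta-glucan it read 25.7 to 193 (median 154), and in untreated tumours 142, 63.9, 14.9, 33.2 and 165. Beta-glucan tumour 4 was low and untreated tumours 1 and 6 were high enough to overlap the other beta-glucan tumours, whereas no tumour given anti-CD40 overlapped either group. Its log2 fold change was 4.16 ± 0.59 with the combination, 3.76 ± 0.56 with anti-CD40 and 0.91 ± 0.56 with beta-glucan (adjusted p = 1.32e-05, 6.82e-05 and 0.412).

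Cd247, which encodes the zeta chain that T and NK cells share, was at 230.2, 266, 179, 178 and 250.2 with the combination and 62.5 to 397 (median 134) with anti-CD40. It was at 8.55 to 60.6 (median 22.5) with beta-glucan and at 18.3, 14.7, 7.02, 0 and 10.02 in untreated tumours, one of which had no read. All tumours given anti-CD40 exceeded the highest beta-glucan tumour. The log2 fold changes were 4.83 ± 0.66, 4.14 ± 0.63 and 1.55 ± 0.63 with the combination, anti-CD40 and beta-glucan (adjusted p = 5.76e-06, 5.89e-05 and 0.165); exons of Pou2f1 overlap Cd247 on the opposite strand.

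Cd3g, the gamma chain, had the lowest fold changes of the receptor chains. Its values were 43.1, 74.3, 46.7, 109 and 48.5 with the combination, 39.5, 51.5, 59.4, 28.9, 112 and 0 in anti-CD40 tumours 1 to 6, 0.95 to 25.8 (median 9.23) with beta-glucan and 8.32, 2.59, 5.26, 5.73 and 20.04 in untreated tumours. Anti-CD40 tumour 6, the tumour with the largest acinar share, had no Cd3g read, and the other 5 lay above every untreated tumour. The log2 fold change was 2.97 ± 0.93 with the combination (adjusted p = 0.0161), 1.81 ± 0.89 with anti-CD40 (adjusted p = 0.168) and 0.01 ± 0.89 with beta-glucan. Without anti-CD40 tumour 6 the anti-CD40 value was 2.77 and passed the test (adjusted p = 0.004), as it did without the tumours over 30% acinar (2.72, adjusted p = 0.0214).

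**Figure D2:**
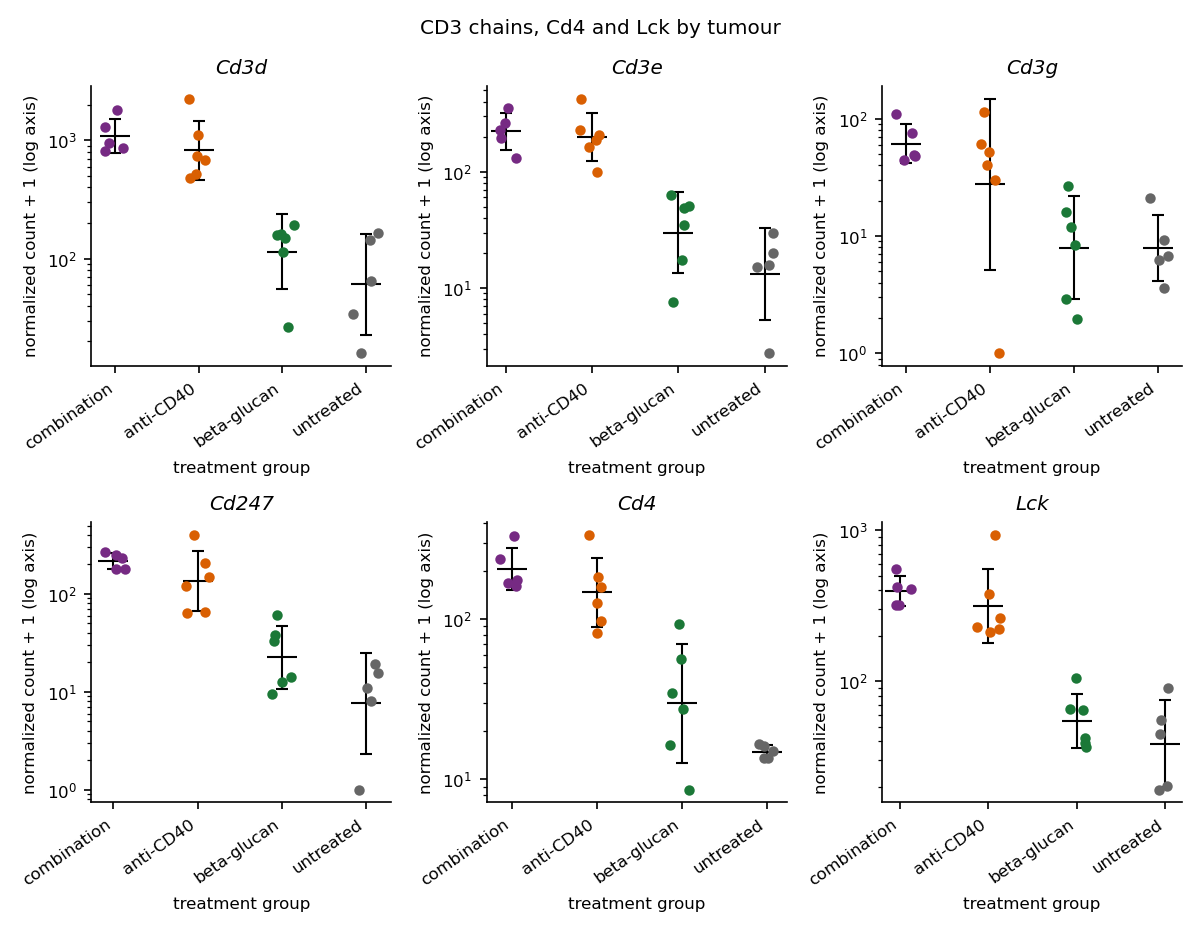
Normalized count + 1 (log axis) of Cd3d, Cd3e, Cd3g, Cd247, Cd4 and Lck in each tumour (points), by treatment group, with the mean and SD of the log2 values drawn as a wide line and bars. Combination and anti-CD40 tumours sit above untreated tumours in all 6 panels, except anti-CD40 tumour 6 for Cd3g at 0 counts.

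Of the 10 surface receptors tested, 10 rose with the combination, 9 with anti-CD40 and 0 with beta-glucan. Cd4, the co-receptor of helper and regulatory T cells, was at 176, 237, 160.1, 166 and 329.8 in the combination tumours and 81.5 to 333 (median 142) with anti-CD40. It was at 7.601 to 92.4 (median 30.1) with beta-glucan and within 12.5 to 15.5 in the 5 untreated tumours. Beta-glucan tumour 4 was below that range, tumour 6 inside it and the other 4 above it. The log2 fold change was 3.79 ± 0.48 with the combination (adjusted p = 2.23e-06), 3.30 ± 0.46 with anti-CD40 (adjusted p = 2.15e-05) and 1.003 ± 0.46 with beta-glucan (adjusted p = 0.229). Without beta-glucan tumour 4 the last value was 1.36 and passed (adjusted p = 0.0497), as it did in DESeq2 on the recovered reads (1.46, adjusted p = 0.0318).

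Cd28, the main costimulatory receptor, was at 184, 127, 106, 311 and 183 with the combination, 51.5 to 309 (median 99.1) with anti-CD40, 1.92 to 33.96 (median 22.02) with beta-glucan and 8.32, 8.63, 4.39, 5.73 and 6.26 in untreated tumours. Tumours given anti-CD40 again stood clear of the others, while beta-glucan tumours 1 and 6 were lower than every untreated tumour. Cd28 changed by 4.51 ± 0.62 log2 units with the combination (adjusted p = 5.65e-06), by 3.80 ± 0.59 with anti-CD40 (adjusted p = 7.11e-05) and by 0.89 ± 0.59 with beta-glucan, which did not pass (adjusted p = 0.461).

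Cd2, an adhesion receptor, and Cd96, a receptor of T and NK cells, rose by 4.61 and 4.82 log2 units with the combination and by 4.08 and 4.30 with anti-CD40. Cd5 and Cd6, scavenger-family receptors that temper the receptor signal, rose by 3.99 and 3.73 with the combination and by 3.98 and 3.67 with anti-CD40. Cd27, a costimulator of the TNF receptor family, rose by 3.26 with the combination and 3.11 with anti-CD40, and Cd7, an immunoglobulin-family receptor of T and NK cells, by 3.35 with the combination and 3.73 with anti-CD40. Slamf6, a self-binding SLAM receptor, rose by 2.98 with the combination and 2.34 with anti-CD40. With beta-glucan all 6 tumours (36.1 to 66.5) lay above every untreated tumour (14.9 to 31.9) at a log2 fold change of 1.21 ± 0.37 that missed the threshold (adjusted p = 0.0504). It passed without untreated tumour 2 (1.38, adjusted p = 0.0427) or 6 (1.31, adjusted p = 0.0396). It also passed without anti-CD40 tumour 2, 5 or 6 or combination tumour 4 (adjusted p = 0.0255 to 0.0483). These tumours are outside the comparison, so the value stayed at 1.21 and only the spread shared by the 4 groups changed.

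Thy1, a glycoprotein that mouse T cells share with fibroblasts, had the smallest fold changes of the surface genes with the combination and with anti-CD40. It read 1877, 1347, 1679, 1230.0 and 1272 with the combination, 838 to 2153 (median 1075) with anti-CD40, 1035 to 1745 (median 1444) with beta-glucan and 828, 1002, 744, 747 and 1238 in untreated tumours. The groups overlapped, and 4 of 5 combination tumours lay above every untreated tumour. The rise passed with the combination (0.71 ± 0.22, adjusted p = 0.0155) but not with values rescaled to equal totals (0.25). With anti-CD40 the fold change was 0.42 ± 0.21 and with beta-glucan 0.65 ± 0.21 (adjusted p = 0.18 and 0.0705). Without the 5 tumours over 30% acinar both passed (0.71 and 0.65, adjusted p = 0.0426 and 0.0472), and the beta-glucan value also passed without untreated tumour 6 (0.76) or anti-CD40 tumour 5 (0.65). The 5 tumours over 30% acinar and anti-CD40 tumour 5 are outside the beta-glucan comparison. Leaving them out changed only the shared spread there. Thy1 was the single gene of the 36 whose mean log2 level was higher with beta-glucan than with anti-CD40. Of 7 fibroblast genes, 7, 3 and 5 rose with the combination, anti-CD40 and beta-glucan, where 18.2%, 11% and 5.09% of all genes rose. The part of the fibroblast genes in the Thy1 values was not tested.

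The 6 kinases and other enzymes rose with the combination and with anti-CD40, and 2 of them with beta-glucan. Lck, the kinase that starts receptor signalling, was at 409.7, 422, 317, 554 and 318 with the combination and 212 to 927 (median 246) with anti-CD40. It was at 35.8 to 104 (median 52.2) with beta-glucan and 54.1, 18.1, 19.3, 43.5 and 88.9 in untreated tumours. The lowest tumour given anti-CD40 was above the highest beta-glucan or untreated tumour, and 1 beta-glucan tumour passed the untreated ones. The log2 fold change was 3.36 ± 0.42 with the combination (adjusted p = 2.14e-06), 3.04 ± 0.41 with anti-CD40 (adjusted p = 1.26e-05) and 0.50 ± 0.41 with beta-glucan (adjusted p = 0.56).

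Zap70, the kinase recruited to phosphorylated chains, was at 147, 123, 198, 213 and 205 with the combination, 50.98 to 318 (median 127) with anti-CD40, 10.9 to 44.7 (median 31.96) with beta-glucan and 33.3, 15.5, 7.897, 5.73 and 18.8 in untreated tumours. As for Lck, the tumours given anti-CD40 did not overlap the rest. Zap70 changed by 3.57 ± 0.50, 3.15 ± 0.48 and 0.83 ± 0.48 log2 units with the combination, anti-CD40 and beta-glucan (adjusted p = 7.93e-06, 5.79e-05 and 0.37).

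Prkcq, protein kinase C theta, which links the receptor to NF-kB, rose in all treated groups. It read 52.1, 22.5, 28.3, 51.8 and 55.3 with the combination and 19.02 to 134 (median 41.98) with anti-CD40. With beta-glucan it read 6.65 to 27.6 (median 19.6), and in untreated tumours 0, 2.59, 4.39, 2.29 and 1.25. Every treated tumour, beta-glucan included, lay above every untreated tumour, although the untreated level was under 5 counts throughout. The log2 fold changes were 3.91 ± 0.55, 4.11 ± 0.53 and 2.75 ± 0.53 with the combination, anti-CD40 and beta-glucan (adjusted p = 9.19e-06, 8.52e-06 and 0.00208).

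Rasgrp1, an exchange factor that activates Ras, rose by 2.02 with the combination, 1.90 with anti-CD40 and 1.30 with beta-glucan, and all 6 beta-glucan tumours (54.7 to 123) exceeded the untreated range (20.04 to 41.6). Txk, a Tec family kinase, rose by 3.28 with the combination and 3.44 with anti-CD40, and Ubash3a, which damps receptor signalling, by 4.18 with the combination and 3.20 with anti-CD40. Untreated values of Ubash3a ran from 0 to 77.6 and anti-CD40 values from 19.8 to 278, so these groups overlapped. Its anti-CD40 call was lost in edgeR (2.17, adjusted p = 0.0795) and in the limma fit of these 2 groups alone (3.20, adjusted p = 0.0506).

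All 8 adaptor and cytoskeleton genes tested rose with the combination and with anti-CD40, and 3 with beta-glucan. Lat, the membrane adaptor on which the signalling complex assembles, was at 318, 257, 173, 308 and 312 with the combination and 59.8 to 381 (median 192) with anti-CD40. It was at 13.3 to 54.7 (median 42.04) with beta-glucan and 39.1, 14.7, 4.39, 21.8 and 47.6 in untreated tumours. The tumours given anti-CD40 were again all higher than the rest, with anti-CD40 tumour 6 closest to them. The fold change was 3.70 ± 0.53 with the combination (adjusted p = 9.23e-06), 2.97 ± 0.50 with anti-CD40 (adjusted p = 0.000188) and 0.82 ± 0.50 with beta-glucan (adjusted p = 0.406) on the log2 scale.

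Ptprcap, a small protein that associates with the phosphatase CD45 in lymphocytes, had the second smallest p of the 36 genes both with the combination and with anti-CD40. It read 426, 445, 328, 598 and 565 with the combination, 265 to 713 (median 393) with anti-CD40, 21.9 to 176 (median 62.1) with beta-glucan and 22.5, 31.9, 9.65, 19.5 and 37.6 in untreated tumours. Of the beta-glucan tumours 5 lay above every untreated tumour. Its log2 fold change was 4.33 ± 0.41 with the combination (adjusted p = 5.27e-08), 4.12 ± 0.39 with anti-CD40 (adjusted p = 2.35e-07) and 1.52 ± 0.39 with beta-glucan (adjusted p = 0.0194); exons of Coro1b overlap it on the same strand and exons of Rps6kb2 on the opposite one.

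Coro1a, an actin-binding protein that T cells share with myeloid cells, was at 957, 887, 759.5, 992 and 717 with the combination and 348 to 1176 (median 479) with anti-CD40. It was at 355 to 591 (median 396) with beta-glucan and 151, 99.3, 74.6, 137 and 263 in untreated tumours. All 17 treated tumours lay above all untreated tumours, and anti-CD40 tumour 5 and beta-glucan tumour 5 stood well above the rest of their groups. Coro1a rose by 2.68 ± 0.29 with the combination, 1.98 ± 0.28 with anti-CD40 and 1.64 ± 0.28 with beta-glucan (adjusted p = 2.83e-07, 2.43e-05 and 0.000588); it overlaps exons of Bola2 on the opposite strand.

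Lcp2, the adaptor Slp-76, which myeloid cells also use, was at 619, 439, 424, 523 and 401 with the combination, 166 to 749 (median 229) with anti-CD40, 160.2 to 338 (median 213) with beta-glucan and 106, 40.6, 79.8, 66.4 and 253 in untreated tumours. Only the combination tumours were all above untreated tumour 6, which was the highest of its group by a wide margin. Lcp2 rose by 2.39 ± 0.39, 1.56 ± 0.37 and 1.27 ± 0.37 log2 units with the combination, anti-CD40 and beta-glucan (adjusted p = 4.59e-05, 0.00465 and 0.0411); it overlaps 4930469K13Rik. The beta-glucan call of Lcp2 was lost in 14 alternatives (adjusted p = 0.0531 to 0.203), among them edgeR (adjusted p = 0.143), DESeq2 (adjusted p = 0.0815), the acinar covariate (adjusted p = 0.0636) and the omission of untreated tumour 1, 2, 3 or 5 or of beta-glucan tumour 1, 3, 5 or 6. Of 8 macrophage genes, 8, 6 and 4 rose in the same comparisons, where 18.2%, 11% and 5.09% of all genes rose. The part of the macrophage genes in the values of Coro1a and Lcp2 was not tested.

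Themis, needed for T cell selection in the thymus, rose by 4.62 with the combination and 3.73 with anti-CD40, Grap2, the partner of Slp-76, by 3.80 and 3.19, and Sit1, an inhibitory transmembrane adaptor, by 3.59 and 2.94. Skap1, an adaptor of integrin adhesion, rose by 2.33 with the combination and 2.23 with anti-CD40, with untreated values spread over 0.877 to 48.8. Without untreated tumour 3 the anti-CD40 fold change of Skap1 was 1.46 and no longer passed (adjusted p = 0.0767), nor did it without anti-CD40 tumour 5 (2.02, adjusted p = 0.0554) or without the tumours over 30% acinar (2.05). The combination value also missed the threshold without the last (2.10, adjusted p = 0.0821). With beta-glucan the fold change of Skap1 was -0.93 ± 0.67 (adjusted p = 0.509).

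Of the 3 transcription factors 1 rose with the combination and 0 with anti-CD40 or beta-glucan, with medians of 1.22, 0.60 and -0.23. Bcl11b, which T cells need to commit to their lineage, was at 245, 352, 147, 282 and 312 with the combination and 138 to 505 (median 242) with anti-CD40. It was at 48.5 to 121 (median 81.6) with beta-glucan and 182, 142, 161, 127 and 104 in untreated tumours. Of the beta-glucan tumours 4 of 6 lay below every untreated tumour, tumours 1 and 5 lay above untreated tumour 6, and the treated groups given anti-CD40 overlapped the untreated one. Its fold change was 0.86 ± 0.33 with the combination (adjusted p = 0.0443), 0.78 ± 0.31 with anti-CD40 (adjusted p = 0.0869) and -0.84 ± 0.31 with beta-glucan (adjusted p = 0.123). The combination call was lost under 12 alternatives, among them the omission of untreated tumour 2, 3, 5 or 6 or of combination tumour 1, 2, 4 or 5 (log2 0.75 to 0.91, adjusted p = 0.0533 to 0.109) and that of the tumours over 30% acinar (0.72, adjusted p = 0.181). Without anti-CD40 tumour 4 the anti-CD40 value was 0.94 and passed (adjusted p = 0.0401).

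Tcf7, the factor TCF-1 of naive and memory-like T cells, was at 29.6, 149.8, 27.5, 50.5 and 141 with the combination and 5.43 to 124 (median 39.6) with anti-CD40. It was at 18.9 to 114 (median 30.05) with beta-glucan and 33.3, 72.5, 28.95, 16.04 and 10.02 in untreated tumours. Every group overlapped every other. The fold changes of 1.22 ± 0.70, 0.60 ± 0.67 and 0.42 ± 0.67 log2 units did not pass (adjusted p = 0.194, 0.588 and 0.799), with 95% intervals of -0.24 to 2.67, -0.79 to 1.99 and -0.97 to 1.81.

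Lef1, the partner factor of TCF-1, was at 37.3, 80.4, 27.5, 106 and 59.2 with the combination, 33.6, 27.3, 11.9, 27.2, 65.3 and 0 with anti-CD40, 5.31 to 28.8 (median 10.98) with beta-glucan and 32.4, 23.3, 10.5, 3.44 and 21.3 in untreated tumours. Of the combination tumours 4 lay above every untreated tumour, and anti-CD40 tumour 6 had no read. The log2 fold changes were 1.85 ± 0.82, 0.12 ± 0.78 and -0.23 ± 0.78 with the combination, anti-CD40 and beta-glucan, and none passed (adjusted p = 0.0837, 0.94 and 0.915). The combination value passed without anti-CD40 tumour 6 in the fit (adjusted p = 0.0135), with combination and untreated tumours alone in it (adjusted p = 0.0326), with a pseudocount of 8 (1.42, adjusted p = 0.0236), in DESeq2 (1.76, adjusted p = 0.0189) and with the acinar covariate (2.58, adjusted p = 0.0417).

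**Figure D3:**
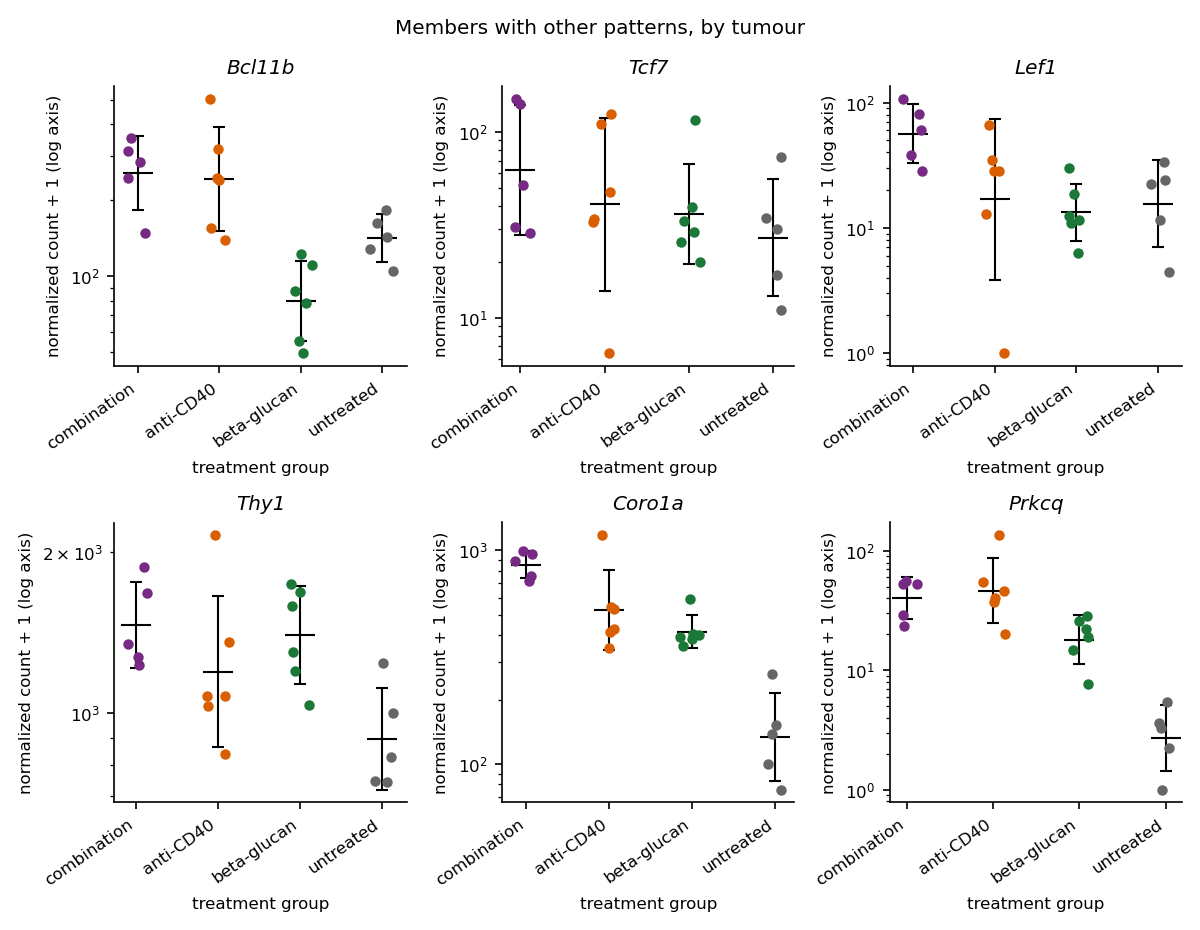
Normalized count + 1 (log axis) of Bcl11b, Tcf7, Lef1, Thy1, Coro1a and Prkcq in each tumour (points), by treatment group, with the mean and SD of the log2 values as a wide line and bars. Groups overlap for Bcl11b, where 4 of 6 beta-glucan tumours lie below every untreated tumour, and for Tcf7, Lef1 and Thy1, and all treated tumours lie above the untreated ones for Coro1a and Prkcq.

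The 4 Gimap GTPases and Ms4a4b, a membrane protein of T cells, rose with the combination and with anti-CD40. Ms4a4b was at 521, 524, 277, 274 and 551 with the combination, 207 to 723 (median 342) with anti-CD40, 29.5 to 114 (median 53.2) with beta-glucan and 27.5, 31.1, 16.7, 32.1 and 17.5 in untreated tumours. Its log2 fold change of 4.03 ± 0.36 with the combination had the smallest p of the 36 genes (adjusted p = 3.18e-08), as did 3.82 ± 0.35 with anti-CD40 (adjusted p = 1.28e-07). With beta-glucan 5 of 6 tumours lay above every untreated tumour and the fold change of 1.11 ± 0.35 missed the threshold (adjusted p = 0.0556). It passed without beta-glucan tumour 3 or 4, anti-CD40 tumour 5 or combination tumour 4 (1.11 to 1.28, adjusted p = 0.028 to 0.0496). It also passed in edgeR and DESeq2 (1.25 in both, adjusted p = 0.045 and 0.0152), with a replicate block (1.22, adjusted p = 0.00405) and with the acinar covariate (1.26, adjusted p = 0.0273). In the other alternatives it missed the threshold.

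Gimap3 was at 174, 207, 170.1, 174 and 237 with the combination and 79.4 to 487 (median 165) with anti-CD40. It was at 6.71 to 57.6 (median 27.5) with beta-glucan and 11.6, 4.32, 2.63, 8.02 and 5.01 in untreated tumours. Beta-glucan tumour 6 was inside the untreated range and the other 5 were above it. The log2 fold change was 4.84 ± 0.50 with the combination (adjusted p = 1.49e-07), 4.73 ± 0.48 with anti-CD40 (adjusted p = 4.1e-07) and 2.03 ± 0.48 with beta-glucan (adjusted p = 0.0105). Gimap7 rose by 5.29 ± 0.68 with the combination and 5.00 ± 0.65 with anti-CD40, and stood at 2.34 ± 0.65 with beta-glucan (adjusted p = 0.0302), from an untreated level of 0 to 23.8. The beta-glucan call of Gimap7 was lost in 10 alternatives. Among them were edgeR (adjusted p = 0.165), DESeq2 (adjusted p = 0.0643), a pseudocount of 8 (adjusted p = 0.0966) and the omission of untreated tumour 2, 3 or 5 or of beta-glucan tumour 1, 3 or 5. Gimap4 and Gimap5 rose by 2.79 and 2.08 with the combination and by 2.35 and 2.27 with anti-CD40.

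**Figure D4:**
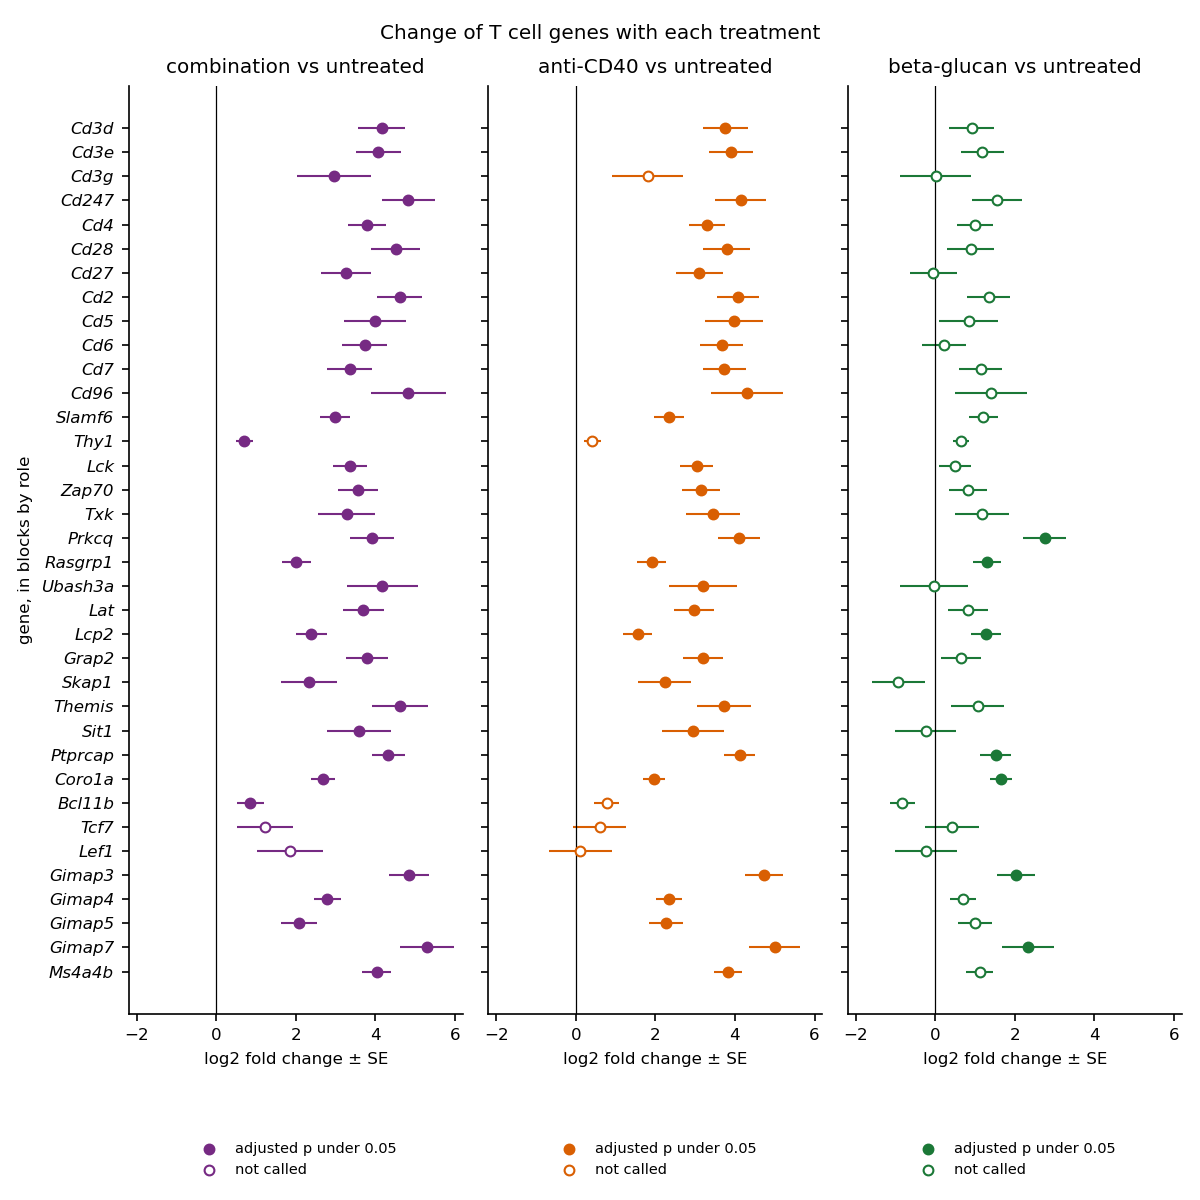
Log2 fold change against untreated tumours, with its standard error, of the 36 tested T cell genes with the combination, anti-CD40 and beta-glucan; filled points passed the test. Of the 36 points, 34 are filled for the combination, 31 for anti-CD40 and 7 for beta-glucan.

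Of the 7 genes called with beta-glucan alone, 5 lost their call in at least 1 alternative. Lcp2 lost it in 14 alternatives, Gimap7 in 10, Rasgrp1 in 7, Ptprcap in 5 and Gimap3 in 1. Without untreated tumour 3, untreated tumour 5 or beta-glucan tumour 5 the count was 3, each time Prkcq, Gimap3 and Coro1a, and with values rescaled to equal totals it was 3 as well, namely Prkcq, Gimap7 and Coro1a. Prkcq and Coro1a were called in every alternative run. Of the 36 genes, 18 had an unadjusted p under 0.05 with beta-glucan, 17 of them above 0 and 1 below, Bcl11b. Of all 14278 genes 2732 did, 1686 above 0 and 1046 below.

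Adding anti-CD40 to beta-glucan gave 30 T cell genes that were higher in combination than in beta-glucan tumours and 0 that were lower, where 6.49% of all genes were higher and 7.61% lower. Every combination tumour exceeded every beta-glucan tumour for 29 genes (5.68% of all genes) and lay below for 0 (5.8%). The median log2 difference of the 36 genes was 2.87, against 0.01 over all genes. Lck, Ptprcap and Ms4a4b had the smallest p, at 2.86 ± 0.41, 2.81 ± 0.39 and 2.92 ± 0.35 (adjusted p = 0.000241, 0.000218 and 5.68e-05), with all 5 combination tumours above every beta-glucan tumour for each. Bcl11b was among the 30 (1.70 ± 0.31, adjusted p = 0.00119). Prkcq (1.16 ± 0.53) and Rasgrp1 (0.71 ± 0.35), which rose with beta-glucan alone, were not (adjusted p = 0.149 and 0.188), nor were Gimap5, Thy1, Tcf7 and Lef1. Without the tumours over 30% acinar 25 genes were higher, and Cd7, Cd96, Txk, Gimap7 and Lcp2 were no longer called. The medians were then 2.70 for the T cell genes and 0.04 for all genes. Of the 30 calls, 9 were lost in at least 1 of all the alternatives run. Lcp2 lost its call in 20 alternatives, Txk in 14 and Cd3g in 6.

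Anti-CD40 tumours set against beta-glucan tumours gave 24 T cell genes higher and 0 lower, where 1.61% of all genes were higher and 0.49% lower, and a median log2 difference of 2.57 against -0.03 over all genes. For 22 genes every anti-CD40 tumour exceeded every beta-glucan tumour (1.44% of all genes), and for 0 the reverse held (0.686%). Ms4a4b (2.71 ± 0.33), Ptprcap (2.61 ± 0.37) and Cd6 (3.45 ± 0.52) had the smallest p (adjusted p = 8.84e-05, 0.000492 and 0.000674). Cd6, which was at 74.8 to 355 (median 138) with anti-CD40 and 2.98 to 32.8 (median 17.97) with beta-glucan, was the single call left when values were rescaled to equal totals. That rescaling moved the median of all genes by -0.64 in this comparison, and the median of the T cell genes was 2.60 above it, as before rescaling. Without the tumours over 30% acinar 16 genes were higher, with a median difference of 2.82 against 0.01 over all genes. Zap70, Cd247, Themis, Cd7, Ubash3a, Sit1, Gimap7 and Skap1 were then no longer called. Of the 24 calls, 23 were lost in at least 1 of all the alternatives run. Themis and Ubash3a lost their calls in 12 alternatives, Cd247 and Gimap7 in 8, Sit1 in 7, Lat in 4 and Cd5 in 3.

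Adding beta-glucan to anti-CD40 gave 0 T cell genes higher or lower in combination than in anti-CD40 tumours, where 0.658% of all genes were higher and 0.826% lower. The groups overlapped for all 36 genes (0.777% of all genes lay wholly above and 0.497% wholly below). Limma found 3 of the 36 at an unadjusted p under 0.05, where 2237 of all 14278 genes were. All 3 were higher with the combination: Coro1a (0.71 ± 0.28, adjusted p = 0.198), Lcp2 (0.83 ± 0.37, adjusted p = 0.268) and Lef1 (1.74 ± 0.78, adjusted p = 0.273). On the recovered reads edgeR and DESeq2 also called 0, with 0 and 1 at an unadjusted p under 0.05. Of all 14278 genes edgeR called 44 higher and 104 lower, and DESeq2 220 higher and 445 lower. Differences ran between -0.38 and 1.74 with a median of 0.41, and were above 0 for 32 genes. For Cd3e the difference was 0.17 ± 0.55 with a 95% interval of -0.97 to 1.30, and for Lck 0.32 ± 0.41 with an interval of -0.51 to 1.16; differences inside these intervals were not resolved by these tumours. Without the tumours over 30% acinar the median was -0.017, 17 genes were above 0 and the Cd3e difference was -0.43. Without anti-CD40 tumour 5, Lcp2 (1.13, adjusted p = 0.046) and Coro1a (0.94, adjusted p = 0.0236) passed.

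The interaction, which is the combination minus anti-CD40 minus beta-glucan plus untreated, asks whether both agents together differ from the sum of their single changes on the log2 scale. Limma called 0 of the 36 genes, where 0% of all genes were higher and 0.021% lower. An unadjusted p under 0.05 was found for 7 of the 36 and for 1194 of all 14278 genes. Prkcq (-2.95 ± 0.75), Gimap3 (-1.92 ± 0.68) and Rasgrp1 (-1.19 ± 0.50) had the smallest p and stood below the sum (adjusted p = 0.193, 0.364 and 0.507). DESeq2 on the recovered reads called Prkcq (-3.54, adjusted p = 0.0104) and Gimap3 (-2.46, adjusted p = 0.0493), whereas edgeR called 0, with 8 at an unadjusted p under 0.05 by either tool. Of all 14278 genes DESeq2 called 26 higher and 72 lower, and edgeR 0 higher and 2 lower. For Cd3e the interaction was -1.02 ± 0.78 with a 95% interval of -2.62 to 0.59.

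Cd3e was also read relative to Ptprc, the common leukocyte antigen CD45, within each tumour, a ratio in which the size factor largely cancels. Ptprc itself rose by 2.50 ± 0.26 log2 units with the combination, 1.81 ± 0.25 with anti-CD40 and 1.40 ± 0.25 with beta-glucan (adjusted p = 1.81e-07, 1.98e-05 and 0.000998). The log2 ratio of Cd3e to Ptprc, with 1 added to each count, averaged -3.67 ± 0.44 with the combination (SD, n = 5), -3.15 ± 0.54 with anti-CD40 (n = 6), -5.47 ± 1.13 with beta-glucan (n = 6) and -5.25 ± 0.98 in untreated tumours (n = 5). All tumours given anti-CD40 had a higher ratio than every beta-glucan and untreated tumour, and the last 2 groups overlapped.

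In exact two-sided permutation tests adjusted over 6 comparisons, the ratio was higher by 1.58 with the combination than in untreated tumours (p = 0.00794, adjusted p = 0.0119) and by 2.10 with anti-CD40 (p = 0.00433, adjusted p = 0.00866). With beta-glucan it differed from untreated tumours by -0.22 (exact p = 0.792). Against beta-glucan tumours it was higher by 1.80 with the combination and by 2.31 with anti-CD40 (exact permutation, adjusted p = 0.00866 for both). The combination differed from anti-CD40 by -0.52 (exact p = 0.13, adjusted p = 0.156); without anti-CD40 tumour 3 that difference was -0.72 and passed (adjusted p = 0.0286). The exact p-values of 0.00433 and 0.00794 are the smallest that 6 against 5 and 5 against 5 tumours allow. Without the tumours over 30% acinar the 4 differences that had passed were 1.28 (combination) and 2.12 (anti-CD40) against untreated tumours and 1.498 (combination) and 2.34 (anti-CD40) against beta-glucan tumours, each with an exact adjusted p of 0.0536. In each, all 3 remaining tumours given anti-CD40 lay above every tumour of the other group, and the unadjusted exact p of 0.0357 against 5 untreated and 0.0238 against 6 beta-glucan tumours is the smallest that these numbers allow.

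**Figure D5:**
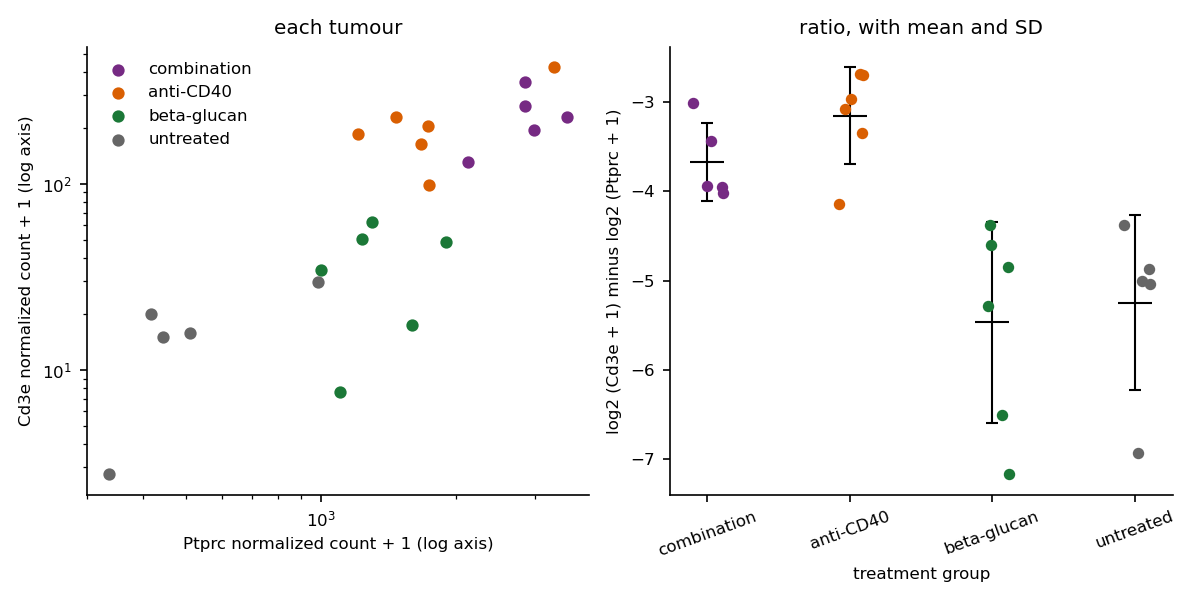
Left, Cd3e against Ptprc in each tumour (normalized count + 1, both axes log); right, the log2 ratio of Cd3e to Ptprc by group, with the mean and SD as a wide line and bars. The ratio is higher in every combination and anti-CD40 tumour than in every beta-glucan and untreated tumour.

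Of 52 further listed genes of T cell signalling and trafficking, 47 were tested (the receptor constant genes Trac, Trbc1, Trbc2, Trdc and Tcrg-C1 are not analysed here): 32 rose and 0 fell with the combination, 25 rose and 1 fell with anti-CD40, and 11 rose and 0 fell with beta-glucan, with medians of 2.09, 1.51 and 0.70. Of all tested genes 18.2%, 11% and 5.09% rose and 15.8%, 7.56% and 1.32% fell with the combination, anti-CD40 and beta-glucan. Medians over all tested genes were -0.01, 0.00 and 0.02. The listed gene that fell was Runx1, a factor of blood cells and epithelia, with a log2 fold change of -0.99 ± 0.19 with anti-CD40 (adjusted p = 0.000828). Vav1, an exchange factor of the receptor cascade, rose by 2.94, 1.92 and 1.54, and Sla, the Src-like adaptor, by 2.50, 2.04 and 2.01 with the combination, anti-CD40 and beta-glucan. Cd53, a leukocyte tetraspanin, rose by 2.34, 1.51 and 1.96, and Klf2, a factor of T cell trafficking and of endothelium, by 1.11, 0.99 and 1.02 with the combination, anti-CD40 and beta-glucan. Sla2 and Tbc1d10c, both of which restrain receptor signalling, rose by 4.17 and 3.36 with the combination and by 4.42 and 3.11 with anti-CD40.

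Cd8a and Cd8b1, the chains of the co-receptor of cytotoxic T cells, rose by 2.36 ± 0.43 and 2.72 ± 0.62 with the combination and by 2.51 ± 0.41 and 3.03 ± 0.59 with anti-CD40; with beta-glucan the values of 0.44 ± 0.41 and 0.57 ± 0.59 did not pass. Foxp3, the factor of regulatory T cells, was at 16.1, 30.5, 36.7, 50.5 and 25.2 with the combination, 0 to 44.8 (median 13.8) with anti-CD40, 0.95 to 25.8 (median 7.07) with beta-glucan and 0, 8.63, 0, 0 and 31.3 in untreated tumours. Its log2 fold change of 3.28 ± 0.99 with the combination passed in limma (adjusted p = 0.0126) but not on recovered reads in edgeR or DESeq2 (1.99 and 2.01, adjusted p = 0.162 and 0.109). The log2 ratio of Cd4 to Cd8a had medians of -0.07 with the combination, -0.56 with anti-CD40, -0.76 with beta-glucan and -1.64 in untreated tumours, and its ranges overlapped between all groups (-0.98 to 1.15 with the combination, -1.59 to 0.18 with anti-CD40, -2.35 to 0.52 with beta-glucan and -2.33 to -0.08 untreated).

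Certain tumours were high or low for most of the T cell genes. Anti-CD40 tumour 5 was the highest of its group for 33 of the 36 genes, with a mean log2 level over the genes of 8.29 against 6.47 to 7.05 in the other 5. Combination tumour 4 was highest for 21 genes and combination tumour 3 lowest for 21, yet the combination group was the tightest (mean log2 level 6.99 to 7.65). Beta-glucan tumour 5 was highest for 25 genes and tumour 4 lowest for 17 (range 4.09 to 5.87), and untreated tumour 6 was highest for 18 and tumour 3 lowest for 19 (range 3.21 to 4.75). The order of group means was combination, anti-CD40, beta-glucan, untreated for 25 genes and combination, anti-CD40, untreated, beta-glucan for 6, namely Cd27, Skap1, Bcl11b, Ubash3a, Lef1 and Sit1. It was anti-CD40, combination, beta-glucan, untreated for 4 genes.

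Markers of other cell types moved in the same comparisons, and their part in the T cell results was not tested. Of all tested genes 18.2%, 11% and 5.09% rose and 15.8%, 7.56% and 1.32% fell with the combination, anti-CD40 and beta-glucan. Of 7 tested B cell genes, 7, 7 and 1 rose with the combination, anti-CD40 and beta-glucan. Their summed normalized counts were 718 to 1851 with the combination, 595 to 1746 with anti-CD40, 61.6 to 658 with beta-glucan and 16.6 to 106 in untreated tumours, with Cd79a at 0 in all tumours given anti-CD40. Of 4 tested NK cell genes, 2, 2 and 0 rose, and the list summed to 228 to 357 with the combination, 231 to 952 with anti-CD40, 40.9 to 165 with beta-glucan and 30.7 to 126 in untreated tumours, with Ncr1 at 0 in untreated tumours. Macrophage genes summed to 48490.0 to 100904 with the combination, 35722 to 86149 with anti-CD40, 26637 to 37755 with beta-glucan and 11756 to 69156 in untreated tumours. Genes of lymphoid stroma, among them the chemokine Ccl19, rose for 4, 4 and 3 of the 4 tested with the combination, anti-CD40 and beta-glucan. They summed to 370.2 to 761 with the combination, 339.6 to 706 with anti-CD40, 70.3 to 221 with beta-glucan and 9.49 to 73.9 in untreated tumours, with Glycam1 at 0 in untreated tumours.

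Of 7 endothelial genes 5, 4 and 1 rose, and their sums were 3426 to 5789 with the combination, 1956 to 6976 with anti-CD40, 2022 to 3087 with beta-glucan and 1174 to 1857 in untreated tumours. Fibroblast genes summed to 134079 to 155672 with the combination, 27257 to 100447 with anti-CD40, 59654 to 165458 with beta-glucan and 27074 to 52127 in untreated tumours. Of 8 epithelial genes 8, 7 and 2 fell with the combination, anti-CD40 and beta-glucan, with sums of 3493 to 8526, 4104 to 22774.5 and 10179 to 26513 in these groups. Of 21 acinar genes 6, 3 and 0 rose, and without the tumours over 30% acinar 32, 32 and 9 T cell genes rose with the combination, anti-CD40 and beta-glucan. Medians of the T cell genes were then 3.52, 3.65 and 0.95, against 0.04, 0.04 and 0.02 over all genes. The share of all genes called in that fit is not given here. The same holds for the fits with no filter and with a replicate block.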

How the data were processed

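Gene-level 3' mRNA sequencing values of 22 tumours were used. Per the submitters' processing notes, STAR (alignment to mm10) and DESeq2 (normalization) were used, with no versions; the deposited signal of each gene, called normalized count here, is its read count divided by the tumour's size factor. The sources used here give no counting program, annotation or strand setting, so reads of Cd247, Ptprcap, Coro1a and Lcp2 and of the genes overlapping them cannot be told apart with certainty. The same limit holds for Cd3e, Cd7, Cd27, Lck, Lat, Skap1, Lef1, Themis, Gimap5 and Gimap7. Exons of each overlap 1 annotated gene that is not among the genes measured. Values were whole multiples of 1 read, and 100% of 395252 came out within 0.001 reads of a whole number, which gave the depth.

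Groups came from the labels. Genes with at least 10 normalized counts in at least 5 tumours (14278) were tested with limma 3.58.1 (R 4.3.3, trended and robust) on log2(value + 1), with all 4 groups in the fit, Benjamini-Hochberg adjustment within each of 7 contrasts and a threshold of 0.05. The ratio of Cd3e to Ptprc was compared by exact permutation tests (scipy 1.17.1). Alternatives were a pseudocount of 8, no filter, rescaling to equal totals with and without 22 acinar genes, edgeR 4.0.16 and DESeq2 1.42.0 on the recovered read counts, a replicate block (also with the other number of 1 combination tumour), the acinar level as a covariate, fits without tumours over 30% acinar, 2-group fits, and each tumour left out. The limma and edgeR steps were tested on simulated data. Other tools were python 3.11.15, numpy 2.4.6, pandas 2.3.3 and matplotlib 3.10.9.

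The gene list, the marker lists and the tests were chosen with earlier results of these data known. Described in full by rule were the receptor chains, Cd4, Cd28, Lck, Zap70, Lat, the 3 transcription factors and the 3 genes with the smallest p in each contrast; further genes were named after their values were seen. Of the other pathway genes up to 4 with the smallest p per contrast against untreated tumours were named, except 1 that is not reported here, besides Cd8a, Cd8b1, Foxp3 and Ptprc.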

Additional observations from a re-analysis of the deposited data

Results flagged for a closer look

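In 148 sets of a T cell gene (or the Cd3e to Ptprc ratio) in 1 treatment group, 11 had a tumour far from the others of its group; chance flags about 1 in 20. Values are normalized counts, with the nearest tumour of the same group beside them. Anti-CD40 tumour 5 was high for Coro1a (1176, nearest 539) and Sit1 (121, nearest 33.0), and beta-glucan tumour 5 was high for Coro1a (591, nearest 406) and Themis (41.7, nearest 8.95). Beta-glucan tumour 4 was low for Cd3d (25.7, nearest 113) and Lat (13.3, nearest 34.2). Untreated tumour 3 was low for Cd3e (1.75, nearest 14.1) and for the log2 ratio of Cd3e to Ptprc (-6.93, nearest -5.04), and untreated tumour 6 was high for Cd7 (22.5, nearest 4.58). Anti-CD40 tumour 6 was low for Cd3g (0, nearest 28.9), and combination tumour 4, the highest of its group for 21 other T cell genes, was low for Gimap5 (29.2, nearest 101).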

How the results depend on the processing

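Of 153 called pairs of a gene and a comparison, 102 kept their direction and their call in every alternative run and 51 lost the call in at least 1; none changed sign. Rescaling to equal totals took most (46 of the 153). It moved the median of all genes by -0.45 with the combination and -0.56 with anti-CD40 against untreated tumours, and the median of the T cell genes then stood 3.74 and 3.26 above it. It left 3 T cell genes higher with beta-glucan than in untreated tumours and 1 higher with anti-CD40 than with beta-glucan. Leaving out 1 tumour gave 3 to 10 genes higher with beta-glucan than in untreated tumours and 0 to 2 higher with the combination than with anti-CD40. DESeq2 gave 2 T cell genes below the sum in the interaction, where it called 72 of all 14278 genes lower. The Cd3e to Ptprc difference without tumours over 30% acinar was 1.28 (combination) and 2.12 (anti-CD40) against untreated tumours and 1.498 and 2.34 against beta-glucan tumours, each at the smallest exact p that 3 tumours in the groups given anti-CD40 allow (adjusted p = 0.0536), so the p does not bear on stability.

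Replicate numbers did not pair the tumours: same-numbered tumours correlated at -0.27 to 0.34, 8 of 30 pairs over 0.1, and 5 of 22 tumours correlated best with their own number. The last combination tumour is number 5 in its title, used here, and 6 in its description. Number 6 was run as an alternative chosen after seeing the data; 8 of 30 pairs were again over 0.1 and 4 tumours correlated best with their own number. With either number as a replicate block, 34, 31 and 8 T cell genes rose against untreated tumours. The paired Cd3e to Ptprc differences were 1.46 (1.47 with number 6) and 2.13 against untreated and 1.92 (1.83) and 2.31 against beta-glucan tumours for the combination and anti-CD40, with too few pairs for the adjusted exact p to pass, and 0.12 for beta-glucan against untreated. With 1 tumour left out, the last ran from -0.64 to 0.12 and the combination minus anti-CD40 difference from -0.72 to -0.42.

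Some values of genes that did not pass changed sign, and the cause was not tested. With equal totals, anti-CD40 against untreated was -0.14 for Lef1 and -0.16 for Thy1. Lef1 with beta-glucan was 0.071 with the acinar covariate, and Cd3e in combination against anti-CD40 tumours was -0.43 without tumours over 30% acinar. With 1 tumour left out, Cd3g with beta-glucan ran from -0.34 to 0.42, Lef1 with anti-CD40 from -0.34 to 0.93, Lef1 with beta-glucan from -0.69 to 0.042 and Cd3e in combination against anti-CD40 tumours from -0.032 to 0.39. With 5 or 6 tumours a group and 1 read worth up to 2.72 normalized counts, several genes rest on few reads in untreated tumours. Reads over the untreated tumours summed to 6 for Txk, 11 for Prkcq, 25 for Themis and 30 each for Cd5 and Cd96. They summed to 31 for Sit1, 33 each for Cd7 and Gimap3, and 35 for Cd28. Of the tested T cell genes, 8 had no read in at least 1 untreated tumour, among them Cd96 in 3 tumours and Sit1 in 2.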
